A study of Rattus norvegicus with 24 samples.

Results

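The insulin-like growth factor system of the rat left ventricle was described through 10 genes: the ligands Igf1 and Igf2, the receptors Igf1r and Insr, the adaptor Irs1, and the binding proteins Igfbp1, Igfbp2, Igfbp3, Igfbp5 and Igfbp6. The members were all probe sets that the platform annotation assigns to these symbols. All 10 genes were on the array, out of 4736 genes with a symbol of their own, and they were read by 25 probe sets. Of these, 19 probe sets covering 9 genes passed the filter on dim signal and were tested.

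Total RNA came from left ventricles of Dahl salt-sensitive rats, a strain whose blood pressure climbs on a salty diet. The animals arrived at 5 weeks of age, and exercise or the high salt diet began at 6 weeks of age. Exercised rats ran on a treadmill every day, with 3 weeks of growing load inside a programme of 6 weeks that ended at 16 m/min, 5 degrees and 90 minutes a day; the labels call this physiologic hypertrophy. High salt rats ate a diet with 6% NaCl, which the labels call pathologic hypertrophy, and controls were sedentary rats of the same age on normal chow. All groups share the strain, so no salt-resistant rat serves as a control for the diet. Per the titles, all 3 conditions were sampled at 3 and 6 weeks but exercise was not sampled at 15 weeks, with 3 columns per condition and time. The labels do not give the point from which weeks were counted, the sex, or whether each array came from its own animal. The p-values therefore measure the spread between arrays, which may be technical.

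The table held 24 columns but 22 distinct arrays. Exercise columns 2 and 3 of 3 weeks repeated control columns 2 and 3 of 3 weeks in all 8799 values, whereas no other pair of columns shared more than 31. These 2 arrays have no settled group but had no salt under either label, so they were counted once, with control array 1 and exercise array 1, as 4 non-salt arrays of 3 weeks. They were left out of every other comparison. The control arrays of 6 weeks also stood apart: the ratio of signal from the 3' end of Gapdh to that from its 5' end, a measure of RNA integrity, was 1.58, 2.48 and 3.99 in them. It was 1.09, 1.52 and 1.58 in the controls of 15 weeks and 0.989 to 1.18 in the other 16 arrays. Of 11 cardiomyocyte markers 10 were measured and all 10 were tested, with Myl2, the ventricular myosin light chain, between 29955 and 57254 on every array, so the labelled tissue was borne out by its markers.

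As background, Igf1 and Igf2 bind the receptor tyrosine kinase encoded by Igf1r, and insulin binds the related receptor encoded by Insr. Both receptors phosphorylate Irs1, which recruits phosphatidylinositol 3-kinase and leads to Akt, a kinase that promotes protein synthesis, glucose uptake and growth of cardiomyocytes. This route is known for its part in the heart growth that follows exercise. The binding proteins hold the ligands in the blood and the matrix and can restrain or present them to the receptors. Igf1 is made in liver in response to growth hormone and also locally, and Igfbp1 is mainly a liver product that insulin represses.

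Insr, the insulin receptor, was higher in high salt than in controls at both later times. It was 2.53-fold higher than in controls at 15 weeks and 2.10-fold higher at 6 weeks, and both differences passed the test. Its mean in high salt was 242, 274 and 283 at 3, 6 and 15 weeks. The non-salt arrays of 3 weeks averaged 192, and the controls of 6 and 15 weeks 112 and 94.1. The exercise arrays of 6 weeks averaged 174. Igf1 fell in high salt at 6 weeks at 1 of its 5 tested probe sets, and Igfbp3 fell at 6 weeks at 1 probe set in high salt and at the other in exercise. The calls of 6 weeks, that of Insr included, were made against the control arrays with the high Gapdh ratios. All 4 were lost after adjustment for the ratio, but that fit left few calls of any kind at 6 weeks. Of the 6794 probe sets tested it called 9 higher and 1 lower for high salt and 0 for exercise, so the loss is not particular to these genes. At 15 weeks it called 189 higher, Insr among them, and 212 lower. Igf2, Igf1r, Irs1, Igfbp2, Igfbp5 and Igfbp6 had no probe set past the threshold in any comparison. All folds and changes are on the scale log2(intensity + 40), which understates the change of dim probe sets, and each probe set is compared only with itself.

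Counts over the members lay near the background of all 6794 probe sets tested. Between high salt and control at 15 weeks, 1 of the 19 members was called (5.26%), at a limma adjusted p under 0.05, against 6.95% of all probe sets. At 6 weeks 3 members were called (15.8%), against 13.8% of all. Between exercise and control at 6 weeks 1 member was called (5.26%), against 7.54% of all. None of the 19 was called between high salt and exercise at 6 weeks, where 0.0147% of all were, 1 member had an unadjusted p under 0.05 in limma, and the smallest adjusted p was 0.657. None was called between high salt and the non-salt arrays of 3 weeks, where 0.147% of all were and 1 member had an unadjusted p under 0.05. None of the shares is a result about the members as a set.

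The remaining contrasts in time gave no call among the 19 members with limma either. From 3 to 6 weeks of high salt 0.0736% of all probe sets were called, and no member had an unadjusted p under 0.05. From 6 to 15 weeks of high salt 3.05% of all were called, and 2 members had an unadjusted p under 0.05 with a smallest adjusted p of 0.249. Between the controls of 15 weeks and the non-salt arrays of 3 weeks 0.0147% of all were called, with 2 members at an unadjusted p under 0.05. The salt effect of 15 weeks differed from that of 6 weeks at 1.47% of all probe sets, with 2 members at an unadjusted p under 0.05.

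The members' median log2 change was close to that of all tested probe sets in the treatment contrasts. It was -0.05 against -0.04 for high salt at 15 weeks, with 8 members above 0 and 11 below. It was -0.07 against -0.15 for high salt at 6 weeks, with 7 above and 12 below. For exercise at 6 weeks both medians were -0.12, with 9 members above 0 and 10 below. Quantile normalization moved the median of all probe sets for high salt at 6 weeks from -0.15 to -0.04, and no member's called change turned its sign with it.

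**Figure D1:**
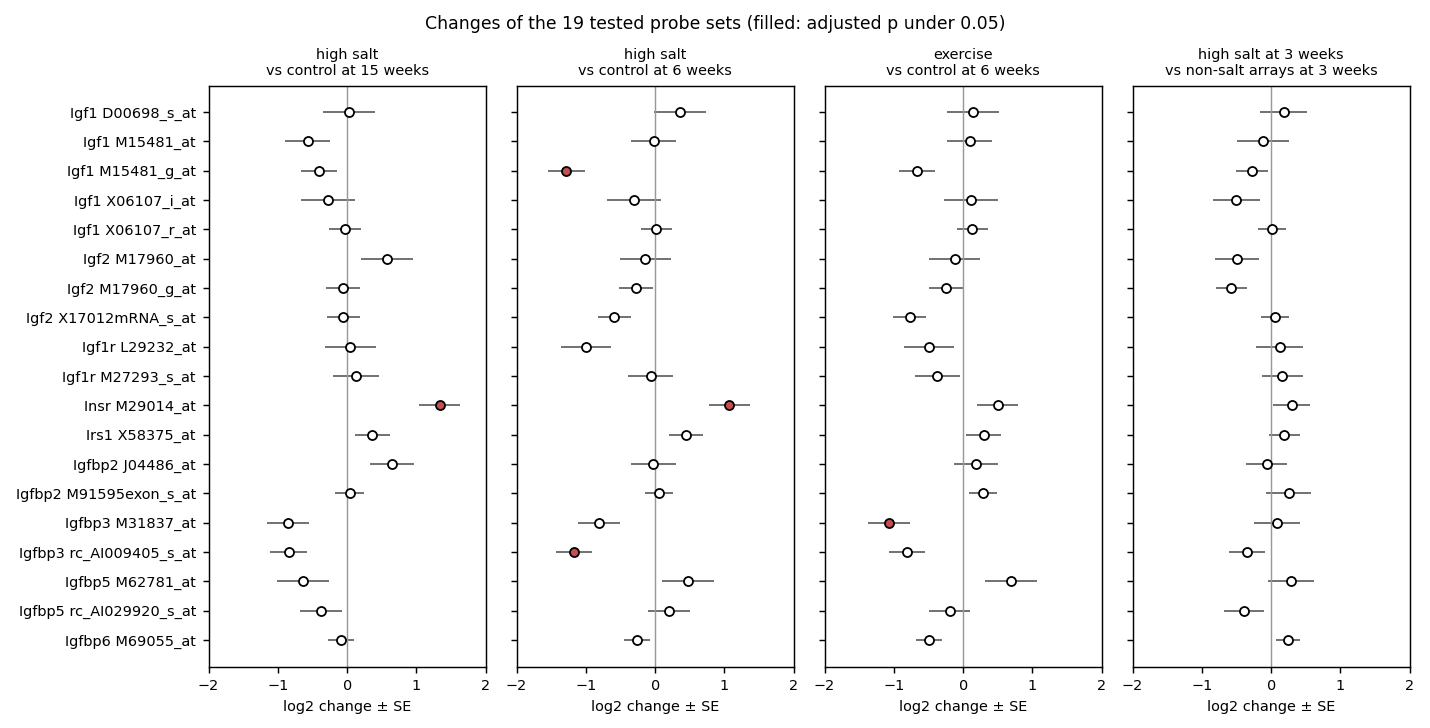
Log2 change ± SE (limma) of the 19 tested member probe sets in 4 comparisons, 1 row per probe set, filled where the adjusted p was under 0.05. Insr stands to the right at 15 and 6 weeks of high salt, at 1.34 and 1.07, and is the only probe set filled in more than 1 panel.

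Igf1 encodes insulin-like growth factor 1, the ligand that mediates much of growth hormone's action. Its probe set M15481_g_at read 592, 909.8 and 893 in the 3 control arrays of 6 weeks, 385, 582 and 492 in the exercise arrays, and 481, 236 and 231 in the high salt arrays. High salt therefore lay wholly below control, and so did exercise, with its highest array just short of the lowest control. In high salt the probe set fell by 1.28 ± 0.26 on the log2 scale (limma adjusted p = 0.00324). Exercise gave a change of -0.66 ± 0.26 that did not pass (adjusted p = 0.124), and high salt against exercise gave -0.62 ± 0.26 (adjusted p = 0.657).

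At the other times this probe set changed less. It read 379, 555 and 516 in the controls of 15 weeks and 314, 360 and 381 in high salt, a change of -0.41 ± 0.26 (adjusted p = 0.445) with an overlap of 1 pair of arrays. At 3 weeks it read 396, 339, 543 and 447 without salt and 399.5, 401 and 253 with salt, a change of -0.28 ± 0.24 (adjusted p = 0.844). The control arrays of 6 weeks, at a mean of 798 ± 179 (SD, n = 3), are thus the high group here: controls of 15 weeks averaged 483 ± 92.5 and non-salt arrays of 3 weeks 431 ± 86.5. After adjustment for the Gapdh ratio the change in high salt at 6 weeks was -0.59 (adjusted p = 0.705). With controls of 3 and 15 weeks in place of those of 6 weeks it was -0.49. The control of 3 weeks was there a single array, given the same weight as the mean of the 3 controls of 15 weeks. Few probe sets of any kind were called in these settings: 9 higher and 1 lower of the 6794 with the covariate, and 5 higher and 4 lower with the other controls. Leaving out 1 array at a time kept the call in all 6 cases. The fall with salt was smaller at 15 weeks than at 6 weeks, by 0.88 ± 0.37, which did not pass (adjusted p = 0.262).

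The other 4 probe sets of Igf1 did not share this pattern. In high salt against control at 6 weeks they gave 0.36 ± 0.37 at D00698_s_at, -0.02 ± 0.32 at M15481_at, -0.31 ± 0.39 at X06107_i_at and 0.02 ± 0.22 at X06107_r_at, with adjusted p between 0.572 and 0.974. X06107_r_at read 228 to 234 in the controls, 246 to 264.5 in exercise and 194 to 291 in high salt. Over the 20 arrays of the fit the 10 pairs of Igf1 probe sets correlated with Pearson's r between -0.19 and 0.56, a description over arrays that share their groups. At 3 weeks X06107_i_at read 58.1 to 84.1 with salt and 93.8 to 156 without, groups that did not overlap (-0.50 ± 0.34, adjusted p = 0.801). The change given for Igf1 at 6 weeks therefore depends on the probe set.

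Igf2 encodes insulin-like growth factor 2, a ligand best known from fetal growth. Of its 6 probe sets 3 were tested. X17012mRNA_s_at read 753, 878.5 and 1631 in the controls of 6 weeks, 637, 571 and 553 after exercise, and 731, 752 and 543.5 in high salt. Both treated groups lay below every control, with high salt at 752.2 just under the lowest control at 753.2, and the spread of the controls came from the array at 1631. The changes of -0.77 ± 0.24 in exercise (adjusted p = 0.0541) and -0.59 ± 0.24 in high salt (adjusted p = 0.105) did not pass in the fit used here. The exercise change passed when the 2 arrays under both labels entered the fit, as controls (adjusted p = 0.035) or as exercise (adjusted p = 0.0339).

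Away from the controls of 6 weeks this Igf2 probe set was nearly level. It lay between 709.6 and 752 in the non-salt arrays of 3 weeks, 607 and 871.5 in high salt of 3 weeks, 676 and 839 in the controls of 15 weeks, and 594 and 841 in high salt of 15 weeks. M17960_g_at was at 448, 654, 594 and 610 without salt at 3 weeks and at 433, 404 and 289.7 with salt, so the groups did not overlap. Its change of -0.57 ± 0.22 was the member difference with the smallest p at 3 weeks and did not pass (adjusted p = 0.458). M17960_at varied from 33.4 to 256 over the 22 arrays, and its changes ranged from -0.50 ± 0.32 for high salt at 3 weeks to 0.57 ± 0.37 at 15 weeks, with no call.

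Insr encodes the insulin receptor and was read by 1 probe set, M29014_at. At 15 weeks its signal was 83.8, 44.5 and 154 in controls and 310, 319 and 221 in high salt, so every high salt array lay above every control. The rise was 1.34 ± 0.30 on the log2 scale, from 94.1 ± 55.5 to 283 ± 54.4 (SD, n = 3 each; limma adjusted p = 0.00885). At 6 weeks it read 63.6, 137 and 136 in controls, 109.8, 215 and 197 in exercise, and 208, 294.5 and 320.2 in high salt. Again high salt did not overlap control, and it rose by 1.07 ± 0.30 (adjusted p = 0.0215). The exercise mean lay between, while the exercise arrays overlapped both groups. Exercise was 0.50 ± 0.30 over control (adjusted p = 0.331) and high salt 0.57 ± 0.30 over exercise (adjusted p = 0.756), so neither difference passed.

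At 3 weeks Insr read 157, 151, 221 and 237 without salt and 270.2, 241 and 215 with salt, groups that overlapped (0.30 ± 0.27, adjusted p = 0.849). The salt groups had means of 242 ± 27.7, 274 ± 58.9 and 283 ± 54.4 at 3, 6 and 15 weeks. The non-salt arrays of 3 weeks had a mean of 192 ± 43.8 (n = 4), with control array 1 at 157 and exercise array 1 at 237. Controls had means of 112 ± 42.1 at 6 weeks and 94.1 ± 55.5 at 15 weeks. The exercise arrays of 6 weeks, also without salt, had a mean of 174 ± 56.2, so these means do not follow 1 condition over time. The controls of 15 weeks stood at -0.85 ± 0.27 against the non-salt arrays of 3 weeks, which did not pass (adjusted p = 0.368), and the salt effects of 15 and 6 weeks differed by 0.27 ± 0.42 (adjusted p = 0.816). A comparison added after the data were seen, the mean of the differences of 3 and 15 weeks, set no array of 6 weeks in the difference, although these arrays entered the estimate of the spread. There Insr was higher with salt by 0.82 ± 0.20 (adjusted p = 0.0151), the only call among the 19 members, against 5.45% of all probe sets. The comparison reuses the arrays of 15 weeks, where Insr was already called, so it is not a separate test of Insr. Fitted without the arrays of 6 weeks, the adjusted p was 0.0149.

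The call at 15 weeks held in 16 of 17 alternative settings, among them the fit with the log2 Gapdh ratio as a covariate (1.49, adjusted p = 0.00487). It was lost without control array 2, the one at 44.5, where the change was 1.05 (adjusted p = 0.0708), and the added comparison was lost without the same array (0.67, adjusted p = 0.0613) and with a single control array at 3 weeks (0.92, adjusted p = 0.0793). The call at 6 weeks held in 12 of 18: the change kept its sign in all 18 and was 1.68 after adjustment for the Gapdh ratio, with a larger error of 0.49 (adjusted p = 0.275), and 0.97 with controls of 3 and 15 weeks (adjusted p = 0.298). It was also lost with only the groups compared in the fit (adjusted p = 0.0572), without control array 1 (0.81, adjusted p = 0.0779), without high salt array 2 (1.02, adjusted p = 0.069) and without high salt array 3 (0.96, adjusted p = 0.0912).

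Summed signals of marker lists moved in the same arrays as Insr. Of 4 atrial myocyte markers 3 were measured, among them Nppa, which a loaded ventricle also makes. Their summed signal at 15 weeks was 3622 to 5999 in controls and 21467 to 25849 in high salt. At 6 weeks it was 1440 to 3590 in controls and 10211 to 10600 in high salt. This sum was mainly Nppa, which read up to 25453.7, against at most 473.8 for Myl7 and 189.2 for Myl4 on any array. The sum therefore describes Nppa, and the direction of Myl7 and Myl4 is not given. At 15 weeks the summed signal of the 4 red blood cell markers measured, of 8 listed, was 30772 to 44489 in controls and 52814 to 71701 in high salt. That of the 10 fibroblast and matrix markers was 43112 to 55815 in controls and 25303 to 39288 in high salt, and that of the 6 macrophage and leukocyte markers measured, of 8 listed, 4479 to 4923 and 3321 to 4076. At 6 weeks the macrophage and leukocyte sum went the other way, at 4130 to 4508 in controls and 5904 to 7999 in high salt. Few genes made up most of these sums. Medians over all arrays were 16753 and 11929 for Hbb and Hbb-b1, 15929 and 14588 for Sparc and Dcn, and 3795 for Cd74. The direction of single markers in these lists is not given. The sum of the 10 cardiomyocyte markers overlapped at 15 weeks, with 254430 to 311860 in controls and 225930 to 320880 in high salt. In tissue RNA, fewer cells of a type and less RNA per cell cannot be told apart, and the part of these shifts in the Insr result was not tested.

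**Figure D2:**
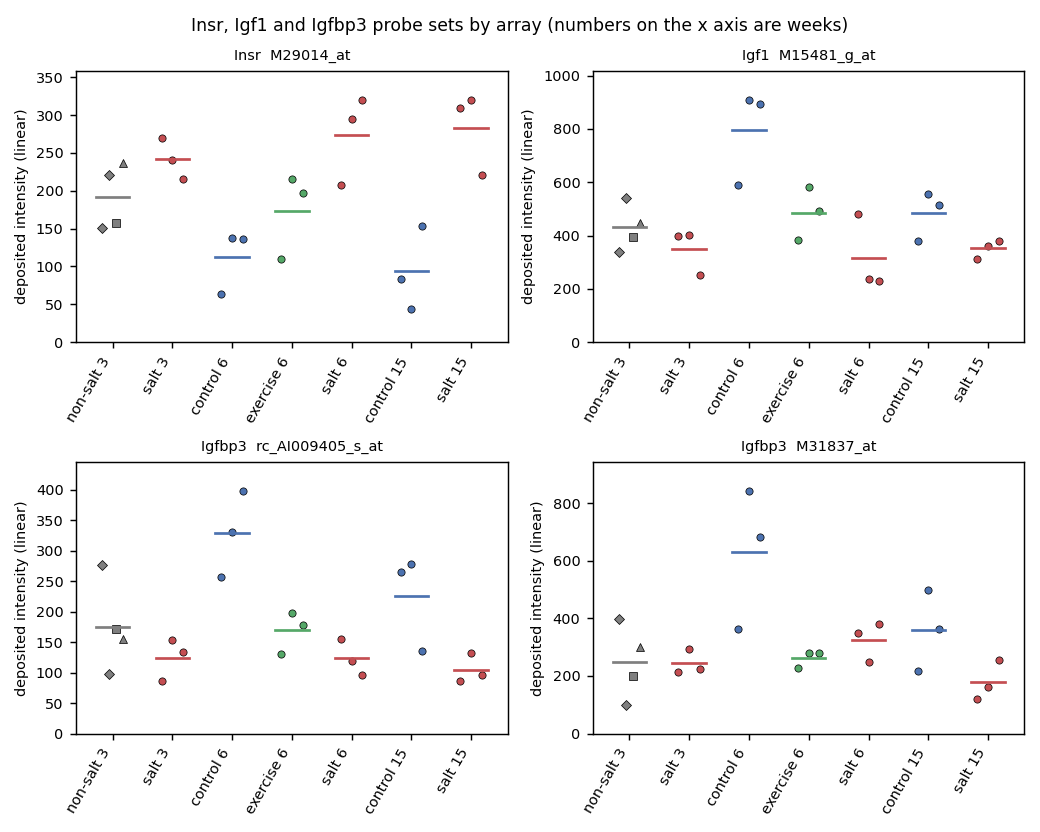
Deposited intensity (linear) of the 4 member probe sets called in any comparison, 1 point per distinct array with lines at the group means; gray points are the 4 non-salt arrays of 3 weeks (square control, triangle exercise, diamonds the 2 arrays under both labels). The mean of Insr is higher in high salt than without salt at every week, whereas Igf1 and Igfbp3 stand out in the control arrays of 6 weeks.

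Insr was also the receptor with a forkhead letter match in its promoter window, shown because forkhead factors act downstream of insulin and are known to bind such letters. RefSeq windows of 250 bases before the annotated start (build GRCr8) were found for all 10 genes, 11 windows in all since Igf2 has 2. Both strands were searched for the forkhead motif GTAAACA, present in 3.21% of 33469 windows of this length, and for the insulin response motif CAAAACA, present in 5.46%. The forkhead motif was found in 2 member windows and the insulin response motif in 2, each printed below 5' to 3' along the gene's strand with the match in capitals.
Insr: acgggccgcgtTGTTTACtggccggagtcg
Igfbp6: caatttgggaaGTAAACAgcggcggagaag
Igf1: aaccccacccaCAAAACAacacatgttctt
Igfbp1: gagctcacaagCAAAACAaacttattttga

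The Insr stretch lies at chr12:6128885-6128914 on the minus strand, 100 bases before the start used, and its match is on the opposite strand of the gene; that start lies 472 bases inside the outermost one of the RefSeq gene. That of Igfbp6 lies at chr7:135154687-135154716 on the plus strand, 221 bases before the start. That of Igf1 lies at chr7:24172454-24172483 on the plus strand, 67 bases before a start that is 2924 bases inside the gene's outermost one. That of Igfbp1 lies at chr14:86261145-86261174 on the plus strand, 121 bases before the start. The Sp1 motif GGGCGG was in 4 member windows, those of Igf1r, Igf2, Igfbp2 and Irs1, and in 30.5% of all. The STAT motif TTCNNNGAA, in 7.67% of all windows, and the TATA motif TATAAA, in 12.9%, were in no member window. A match describes letters only: Insr and Igfbp6 carry the same forkhead letters, and Igfbp6 was called in no comparison.

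Igf1r encodes the receptor for both ligands. Its probe set L29232_at read 108, 210.2 and 288 in the controls of 6 weeks, 128, 140.5 and 103 after exercise, and 121, 35.0 and 85.4 in high salt. The groups of high salt and control overlapped by 1 pair, and the change of -1.0 ± 0.37 did not pass (limma adjusted p = 0.0727), though it did without control array 1 (-1.32, adjusted p = 0.0216) and without high salt array 1 (-1.24, adjusted p = 0.0433). At 15 weeks the same probe set differed by 0.05 ± 0.37 (adjusted p = 0.972). The second probe set, M27293_s_at, gave -0.07 ± 0.33 at 6 weeks and 0.13 ± 0.33 at 15 weeks, and over the 20 arrays the pair correlated at r = -0.05.

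Irs1 encodes the adaptor shared by both receptors. X58375_at read 122, 61.9 and 72.4 in the controls of 6 weeks and 95.3, 150.3 and 142 in high salt, and 86.4 to 143 in the controls of 15 weeks against 103 to 201.5 in high salt. Its changes were 0.45 ± 0.25 at 6 weeks (adjusted p = 0.253) and 0.36 ± 0.25 at 15 weeks (adjusted p = 0.487), with overlapping groups both times. Neither passed, and at 3 weeks the difference was 0.19 ± 0.23.

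Igfbp3 encodes the main carrier of both ligands in blood. Its probe set rc_AI009405_s_at read 256, 331 and 398 in the controls of 6 weeks, 131, 198.5 and 178 after exercise, and 155, 119 and 95.7 in high salt. Neither treated group overlapped the controls. High salt fell by 1.17 ± 0.26 (limma adjusted p = 0.00624), and exercise gave -0.81 ± 0.26 (adjusted p = 0.0645), which did not pass.

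The second Igfbp3 probe set, M31837_at, read 361, 842 and 684 in the controls of 6 weeks, 229, 279.9 and 279 after exercise, and 349, 248 and 379.8 in high salt. Here exercise was wholly below control and fell by 1.08 ± 0.30 (adjusted p = 0.0351). High salt overlapped control and gave -0.82 ± 0.30 (adjusted p = 0.078). So at 6 weeks each treatment was called at a different probe set, the difference between high salt and exercise passed at neither (-0.36 ± 0.26 and 0.26 ± 0.30, adjusted p = 0.887 and 0.97), and all 4 changes were below 0. The comparisons share their control arrays. Both probe sets correlated over the 20 arrays (r = 0.70).

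These 6-week calls changed with the controls. At rc_AI009405_s_at the high salt change was -0.79 after adjustment for the Gapdh ratio (adjusted p = 0.637) and -0.53 with controls of 3 and 15 weeks (adjusted p = 0.622), and the call held when any 1 array was left out. At M31837_at the exercise call held in 6 of 18 settings, and the change was -0.04 with the covariate (adjusted p = 0.996) and -0.0056 with the other controls (adjusted p = 1). It was lost with the 2 arrays under both labels in the fit, as controls (adjusted p = 0.0565), as exercise (adjusted p = 0.0611) or with all columns as deposited (adjusted p = 0.079), without the filter (adjusted p = 0.0527) and with only the groups compared (adjusted p = 0.0737). It was lost as well without control array 2 (-0.84, adjusted p = 0.165) or 3 (-0.98, adjusted p = 0.137) and without exercise array 1 (-0.99, adjusted p = 0.0984), 2 (-1.12, adjusted p = 0.0797) or 3 (-1.12, adjusted p = 0.0802).

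At 15 weeks rc_AI009405_s_at read 265, 277 and 135 in controls and 85.4, 131 and 95.6 in high salt. The groups did not overlap, although control array 3 was close to high salt array 2. The change of -0.85 ± 0.26 did not pass (adjusted p = 0.0603), but did without control array 3 (-1.12, adjusted p = 0.0197) and without high salt array 2 (-0.98, adjusted p = 0.0492). M31837_at read 216, 497 and 363 in controls and 119, 162 and 255 in high salt, overlapping by 1 pair, with a change of -0.85 ± 0.30 (adjusted p = 0.108) that passed without control array 1 (-1.14, adjusted p = 0.0297). At 3 weeks the changes were -0.35 ± 0.26 and 0.08 ± 0.33 (adjusted p = 0.806 and 0.975).

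The summed signal of smooth muscle markers moved with Igfbp3. It was mainly Acta2, with a median of 3048 over the 22 arrays, against 373 for Tagln, 351 for Myh11 and 142 for Cnn1. This sum, over 4 measured of 5 listed (Acta2, Tagln, Myh11 and Cnn1, none at 0), was 4549 to 11035 in the controls of 6 weeks, 2821 to 4200 after exercise and 2803 to 4409 in high salt. At 15 weeks it was 3787 to 5093 in controls and 2325 to 2894 in high salt. Adipocyte markers, 4 measured of 6, summed to 4650 to 8629 in the controls of 6 weeks, 3766 to 4742 after exercise and 2994 to 4056 in high salt. That sum was mainly Fabp4 and Lep, with medians of 1991 and 1711, against 113 for Cfd and 49.3 for Plin1. The direction of single markers is not given for either list. The part of either cell type in the Igfbp3 and Igf1 results was not tested.

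**Figure D3:**
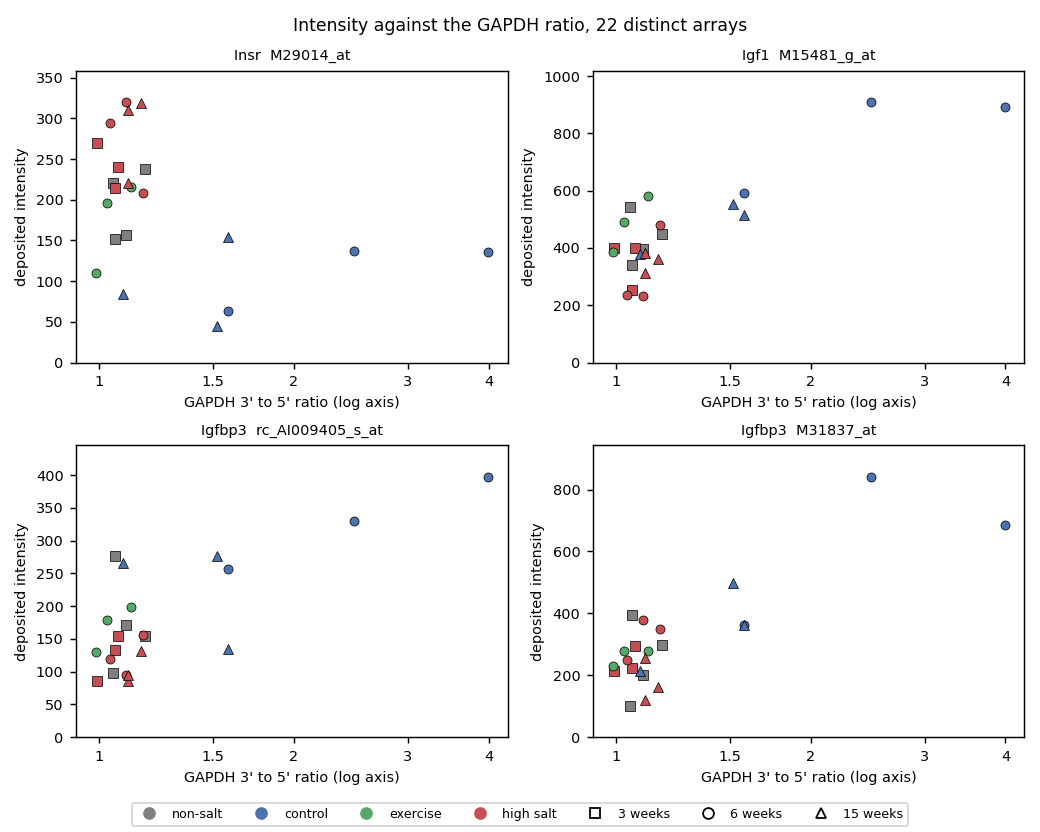
Deposited intensity of the called probe sets (linear y axis) against the Gapdh 3' to 5' ratio (log x axis) on the 22 distinct arrays, with colour for treatment and shape for week. Control arrays 2 and 3 of 6 weeks, at 2.48 and 3.99, hold the highest signals of Igf1 and of both Igfbp3 probe sets, whereas the lowest Insr signals, 44.5 to 83.8, occur at ratios from 1.09 to 1.58.

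Igfbp1, the insulin-repressed binding protein of liver, was dim on every array, at 9.6 to 26.5, and below the filter. Of 7 liver markers 6 were measured, with a summed signal of 801.5 to 1466 on 21 arrays and 3020 on exercise array 1 of 3 weeks. The 4 non-salt arrays of 3 weeks read 12.6 to 21.1 for Igfbp1, with this exercise array at 21.1. The same array enters every comparison with the non-salt arrays of 3 weeks. No change is given for Igfbp1.

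Igfbp2, a binding protein made in many tissues, was tested at 2 of 3 probe sets. J04486_at read 6.9, 20.5 and 27.4 in the controls of 15 weeks and 28.7 to 81.6 in high salt, so the groups did not overlap, although 27.4 and 28.7 were close. The change of 0.65 ± 0.32 did not pass (limma adjusted p = 0.28), and the control signals lie below the 25th percentile of all values, 36.3. M91595exon_s_at read 243 to 342 in the controls and 250.5 to 393 in high salt of 15 weeks (0.03 ± 0.21, adjusted p = 0.964). On control array 1 of 3 weeks it read 59.4, against 311 to 382 on the other 3 non-salt arrays of that week.

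Igfbp5, which binds ligands and matrix, was tested at 2 of 3 probe sets. M62781_at read 61.5, 47.3 and 153 in the controls of 6 weeks, 64.5, 292 and 92.3 in high salt, and 144 to 159.8 after exercise. At 15 weeks it read 127, 156 and 61.8 in controls and 35.6, 57.0 and 79.7 in high salt. Its changes with salt were 0.48 ± 0.37 at 6 weeks (adjusted p = 0.43) and -0.64 ± 0.37 at 15 weeks (adjusted p = 0.382), and the difference between them, -1.12 ± 0.53, did not pass (adjusted p = 0.315). The groups overlapped at both times. The second probe set, rc_AI029920_s_at, gave 0.20 ± 0.30 and -0.38 ± 0.30 in the same comparisons and did not follow the first over the arrays (r = -0.15).

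Igfbp6, a binding protein that prefers Igf2, read 317 to 618 over the 22 arrays. It read 555, 508 and 618 in the controls of 6 weeks and 386, 407 and 361 after exercise, groups that did not overlap. The change of -0.50 ± 0.19 did not pass (limma adjusted p = 0.115). The mean of high salt lay between, with arrays at 537, 473 and 379 that overlapped both groups (-0.26 ± 0.19 against control, adjusted p = 0.389). At 3 weeks all 3 high salt arrays, 437 to 499, lay above the 4 non-salt arrays, 317 to 429.6, with a change of 0.24 ± 0.17 (adjusted p = 0.802).

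**Figure D4:**
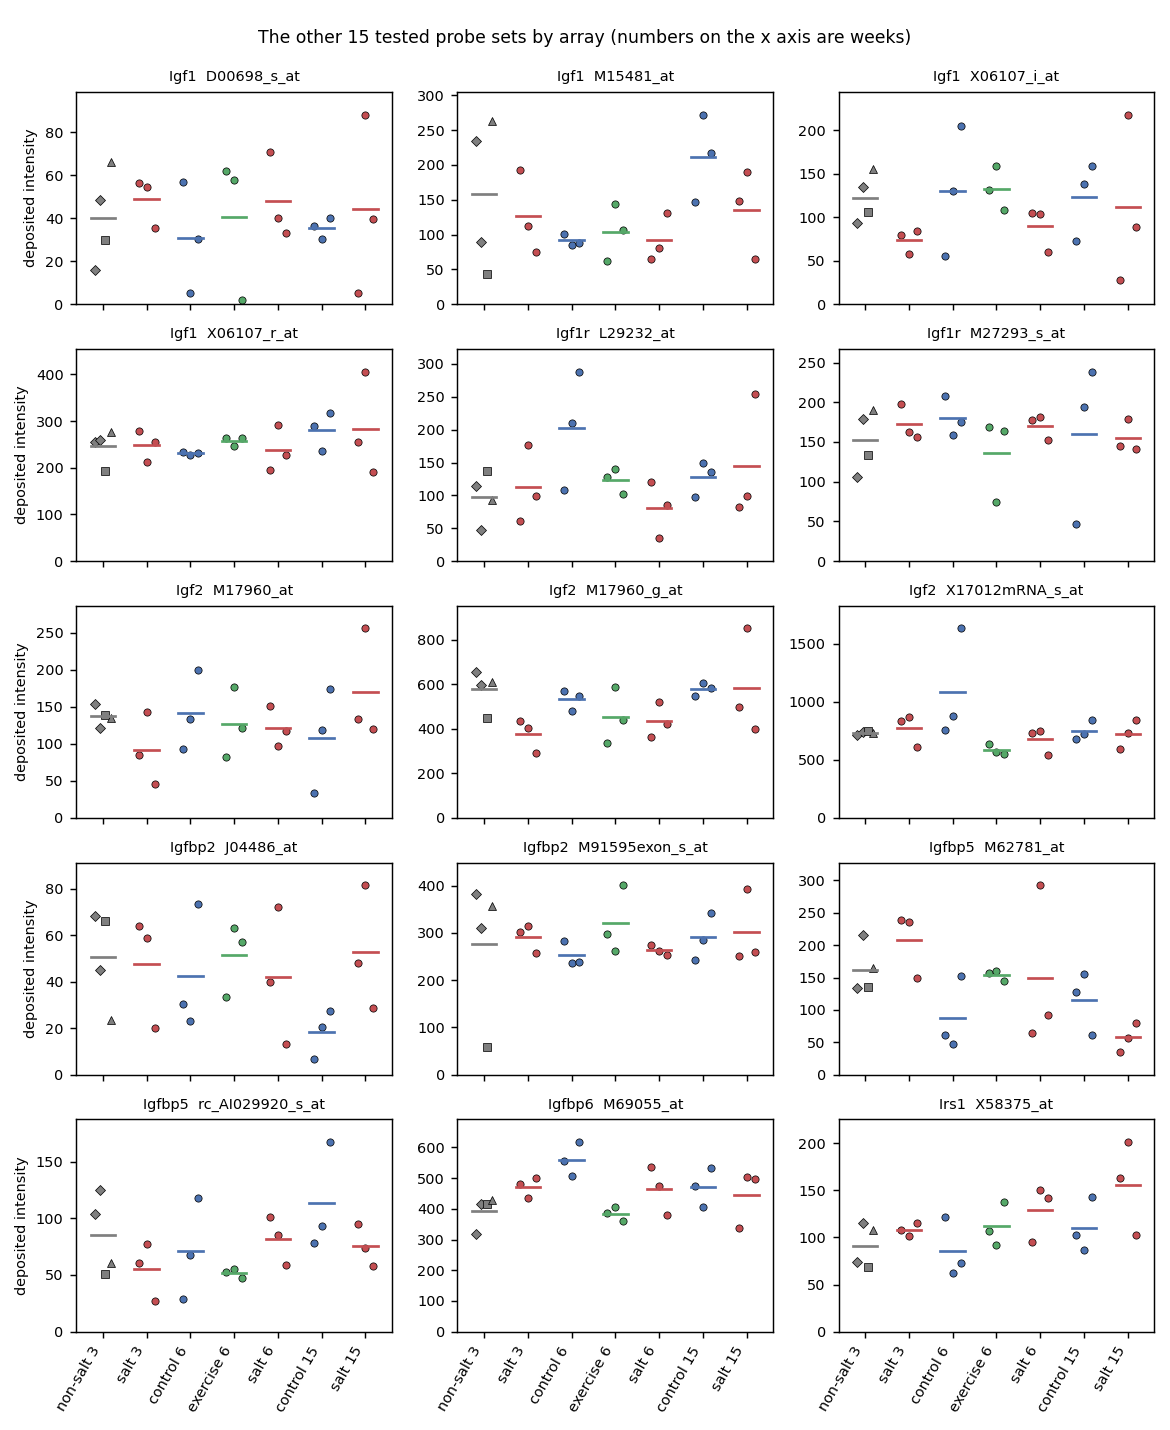
Deposited intensity (linear) of the other 15 tested member probe sets, drawn as in the plot of Insr, Igf1 and Igfbp3 by array, with lines at the group means. Most groups overlap; Igf2 X17012mRNA_s_at shows 1 control array of 6 weeks at 1631, and Igfbp6 lies lower after exercise than in the controls of 6 weeks.

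Groups that did not overlap were counted as well. Between high salt and control at 15 weeks 3 of the 19 members did not overlap, namely Insr and Igfbp2 J04486_at higher and Igfbp3 rc_AI009405_s_at lower, against 20.4% of all tested probe sets. At 6 weeks 4 members did not overlap in high salt, 1 higher and 3 lower, against 30.3% of all. After exercise 6 did not, 5 of them lower, against 28.1% of all. At 3 weeks 3 did not, 1 higher and 2 lower, against 14.7% of all. The members' counts stand on both sides of these shares and are not a result about the members as a set.

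The wider pathway was followed through a list of 76 genes of which 48 were on the array and 46 were tested, at 83 probe sets. At 15 weeks 5 probe sets of the list were called in high salt, 3 higher and 2 lower (6.02%). At 6 weeks 9 were called in high salt, 6 higher and 3 lower (10.8%), and 7 after exercise, 4 higher and 3 lower (8.43%). These shares stand near those of all probe sets given above. The list had no call between high salt and exercise, at 3 weeks, from 3 to 6 weeks of salt, between the controls of 15 weeks and the non-salt arrays of 3 weeks, or in the difference of the salt effects. In limma 4, 5, 2, 11 and 6 of its probe sets had an unadjusted p under 0.05 in these comparisons, in that order.

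At 15 weeks the list's 5 calls were in 4 genes. Eif4ebp1, a repressor of cap-dependent translation that the pathway inactivates, rose by 1.59 ± 0.26 at U05014_at, from 302 ± 108 to 1017 ± 449 (SD, n = 3 each; limma adjusted p = 0.00066). Its second probe set, U05014_g_at, rose by 1.13 ± 0.21 (adjusted p = 0.00184), while the third, rc_AI178828_i_at, gave 0.34 ± 0.29 (adjusted p = 0.594). Pik3r1, the regulatory subunit of phosphatidylinositol 3-kinase that docks on Irs1, rose by 1.65 ± 0.28 at U50412_at, from a dim 16.4 ± 1.85 to 144 ± 59.9 (adjusted p = 0.00099), with 0.68 ± 0.31 at D64045_s_at (adjusted p = 0.238). Slc2a4, the insulin-regulated glucose transporter GLUT4, fell by 0.91 ± 0.21 at D28561_s_at, from 2438 ± 428 to 1286 ± 303 (adjusted p = 0.0122), but gave -0.11 ± 0.23 at rc_AA799760_s_at (adjusted p = 0.88). Ghr, the growth hormone receptor, fell by 0.73 ± 0.22 at S49003_s_at, from 1457 ± 70.8 to 880.3 ± 239 (adjusted p = 0.0493), but gave 0.17 ± 0.26 and 0.08 ± 0.31 at its other 2 probe sets (adjusted p = 0.812 and 0.943). The groups did not overlap at any of the 5 probe sets called.

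Eif4ebp1 also differed between late and earlier salt hearts at 2 probe sets. From 6 to 15 weeks of high salt it rose by 1.11 ± 0.21 at U05014_g_at (adjusted p = 0.00303) and by 1.10 ± 0.26 at U05014_at (adjusted p = 0.0194). These were the list's 2 calls in that comparison (2.41%, against 3.05% of all). The third probe set, rc_AI178828_i_at, gave 0.44 ± 0.29 (adjusted p = 0.607). In the added comparison of 3 and 15 weeks the list had 4 calls (4.82%, against 5.45% of all), at probe sets called at 15 weeks. They were Eif4ebp1 at 0.82 ± 0.17 and 0.65 ± 0.13, Slc2a4 at -0.64 ± 0.15 (adjusted p = 0.0106) and Ghr at -0.52 ± 0.14 (adjusted p = 0.0284). The other probe sets of Slc2a4 and Ghr gave 0.06 ± 0.15 for Slc2a4 and 0.18 ± 0.18 and 0.08 ± 0.20 for Ghr, and the third of Eif4ebp1 0.10 ± 0.18.

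At 6 weeks, against the controls with high Gapdh ratios, both treatments were called at several of the same probe sets, and they share those controls. Most of these genes were called at 1 of several probe sets. Gsk3b, a kinase that Akt inhibits, fell at X73653_at by 1.06 ± 0.22 in high salt (limma adjusted p = 0.00336) and by 0.92 ± 0.22 in exercise (adjusted p = 0.0134), but gave -0.0025 and -0.21 at X53428cds_s_at (adjusted p = 0.995 and 0.602). Grb2, the adaptor to the Ras route, rose at rc_AI170776_s_at by 1.07 ± 0.23 in high salt and by 0.87 ± 0.23 in exercise (adjusted p = 0.00395 and 0.0223). Its other probe sets were not called: D49847_at gave -0.51 and -0.13, and rc_AA801130_at -0.01 and 0.27. Pik3r1 rose at U50412_at by 1.05 ± 0.28 and 1.15 ± 0.28 (adjusted p = 0.0159 and 0.0156) and at D64045_s_at by 1.20 ± 0.31 in high salt (adjusted p = 0.0143), where exercise missed the threshold (adjusted p = 0.0559).

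Rps6, the ribosomal protein phosphorylated by the route's S6 kinase, fell at M29358_g_at by 0.72 ± 0.17 and 0.58 ± 0.17 in high salt and exercise (adjusted p = 0.00773 and 0.0431), but gave 0.08 and 0.18 at M29358_at. Sos1, a Ras activator, fell at rc_AA892860_at by 0.70 ± 0.19 in high salt (adjusted p = 0.0173), with -0.59 ± 0.19 in exercise (adjusted p = 0.0586). Its other probe set, rc_AA892860_g_at, gave -0.62 in high salt and -0.10 in exercise and was not called. Akt1, the central kinase of the route, rose at D30040_at by 1.05 ± 0.30 after exercise, from 761 ± 285 to 1536 ± 72.6 (adjusted p = 0.0389), with 0.88 ± 0.30 in high salt (adjusted p = 0.0554), but gave -0.02 and -0.11 at rc_AA799664_at. Eif4ebp1 rose at U05014_at in both, by 1.02 ± 0.26 after exercise (adjusted p = 0.0196) and by 0.90 ± 0.26 in high salt (adjusted p = 0.0242). The other probe sets of Eif4ebp1 were not called: U05014_g_at gave 0.27 after exercise and 0.23 in high salt, and rc_AI178828_i_at 0.19 and -0.08. Slc2a4 fell at rc_AA799760_s_at by 0.79 ± 0.23 after exercise (adjusted p = 0.0436), but gave 0.40 ± 0.21 at D28561_s_at (adjusted p = 0.269). The Eif4ebp1 value in high salt at U05014_at and the Slc2a4 value at rc_AA799760_s_at lie outside the naming rule and were chosen after they were seen. No probe set of the list passed between high salt and exercise.

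The genes most like each called member were named by Pearson's r of log2 values over the 20 arrays of the fit, as a description without a test, since the arrays share groups and Gapdh ratios. Insr was most like Acta1, skeletal alpha-actin (r = 0.79), Gata6, a cardiac transcription factor (0.785), and Ctsd, a lysosomal protease (0.782). Igf1 M15481_g_at was most like Acly, ATP citrate lyase (0.885), Snrnp70, a splicing factor (0.878), and Foxn3 (0.876). Igfbp3 M31837_at was most like the smooth muscle genes Tagln (0.882) and Acta2 (0.878) and Nxf1, an RNA export factor (0.857), whereas rc_AI009405_s_at was most like Macroh2a1, a histone variant (0.893), Pold1, a DNA polymerase subunit (0.891), and Dgka, a lipid kinase (0.883). The 2 probe sets of Igfbp3 thus had no gene in common among their nearest 3.

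**Figure D5:**
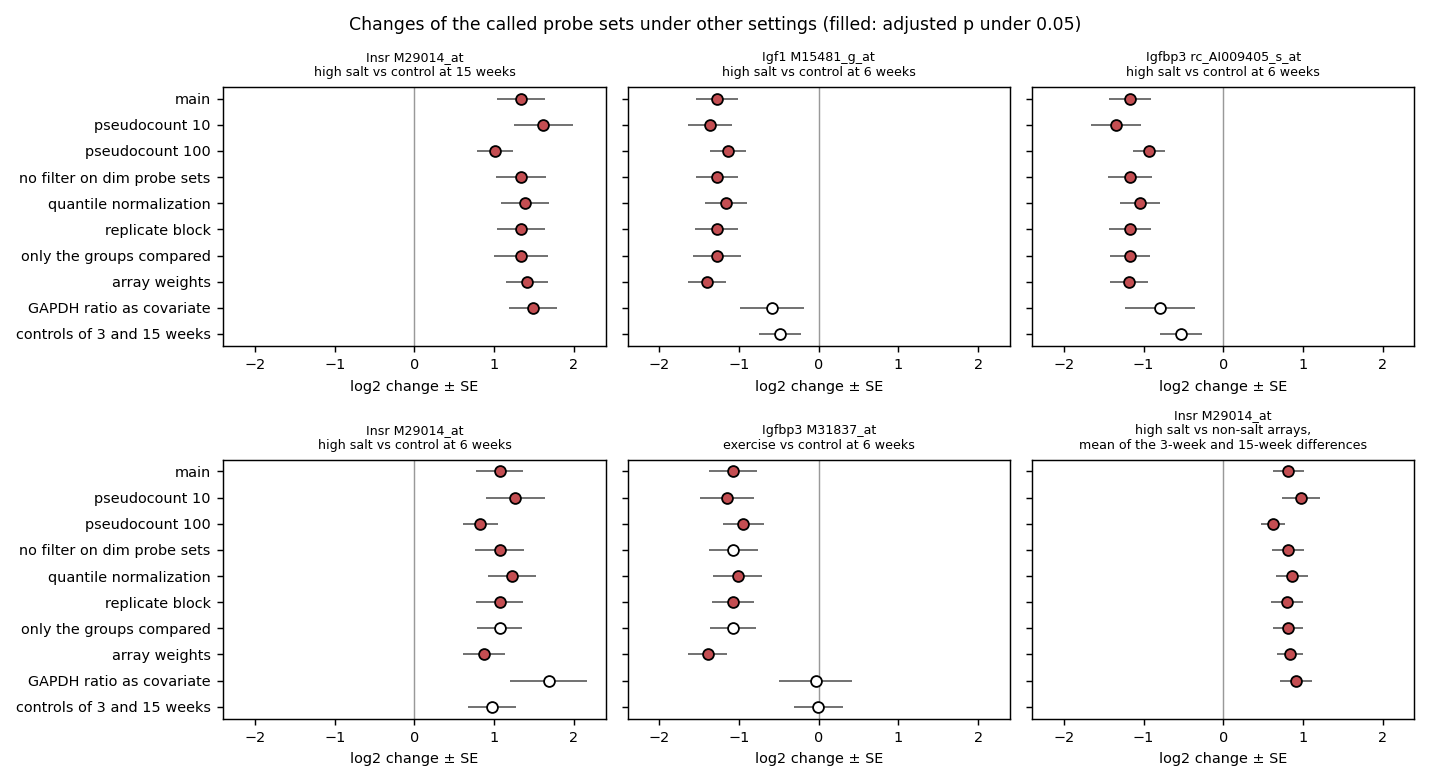
Log2 change ± SE of each called member change under part of the settings tried, filled where the adjusted p was under 0.05. Not drawn are leave-one-out settings, those with the arrays under both labels or all columns, and that with a single control array at 3 weeks. The Igfbp3 call after exercise and the added Insr comparison were lost in some settings not drawn. Insr at 15 weeks is filled in every row shown. Igf1, Igfbp3 and Insr at 6 weeks are all open in the row with the Gapdh covariate and in that with controls of 3 and 15 weeks. Insr at 6 weeks and Igfbp3 after exercise are also open with only the groups compared, and Igfbp3 after exercise without the filter.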

How the data were processed

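Per the file headers and values, the deposited table holds 1 linear intensity per probe set and array from an Affymetrix rat array, for 8799 probe sets. How the authors summarised probes and corrected background is not given in the sources used here. Column means after trimming 2% were 500.8 to 501.0, so the deposited intensities were already scaled. The members, lists and tests were chosen with earlier results of these data known.

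Control probe sets (59) were left out. Values were taken as log2(intensity + 40), the pseudocount being the 25th percentile (36.3) to 1 digit, and probe sets with a mean below that percentile over the 22 distinct arrays were not tested, leaving 6794. limma 3.58.1 in R 4.3.3 fitted 1 mean per group (lmFit, eBayes with trend) to 20 arrays, or to 22 for contrasts with the 4 non-salt arrays of 3 weeks and for the added comparison. Calls are at a Benjamini-Hochberg adjusted p under 0.05. The procedure was tested on simulated data. The annotation gave 1 symbol for 7018 probe sets, several for 308 and none for 1473. All members, every pathway probe set called (at most 6 per comparison, by p) and the 3 genes most like each called member are named. The number of arrays limits the precision. Alternatives were other pseudocounts, filter, normalization, fits, controls and left-out arrays. The other controls, of 3 and 15 weeks, were 1 and 3 arrays, with equal weight for each week.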

Additional observations from a re-analysis of the deposited data

Results flagged for a closer look

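Igfbp6 M69055_at read 317.4 on 1 of the 4 non-salt arrays of 3 weeks, array 2, which the table holds under 2 labels, against 415.3 to 429.6 on the other 3. The gap was 0.873 of the group's range, above Dixon's critical value of 0.829 for 4 values. The check was run on 25 member probe sets in this group, and chance flags about 1 in 20 such groups.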

How the results depend on the processing

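Of 3496 values of the 190 single changes under the alternatives, 3440 kept their side of the threshold, 25 lost a call and 31 gained one. A turn of sign was counted only for changes called in the main fit or the alternative, and 0 of those reversed. Sign changes of uncalled values were not counted. The number of members called for high salt at 15 weeks (1) was 4 with array weights and 0 to 2 when 1 array was left out. For high salt at 6 weeks (3) it was 0 with the Gapdh covariate, 0 with controls of 3 and 15 weeks, 2 with only the groups compared, 6 with array weights, and 2 to 5 with 1 array left out, 5 being without control array 1. For exercise (1) it was 2 with a pseudocount of 100, 0 without the filter, 0 with only the groups compared, 0 with the covariate, 0 with the other controls, 5 with array weights, and 0 to 3 with 1 array left out, 3 being without control array 1. From 6 to 15 weeks of salt and in the difference of the salt effects, 0 became 1 with array weights. The added comparison (1) gave 4 with array weights and 0 to 2 with 1 array left out. The causes were not tested. The numbers in the titles did not pair the arrays (correlations of same-numbered arrays -0.22 to 0.23), and with the replicate block the counts were 1, 3 and 1 as before. For contrasts with the non-salt arrays, counting the arrays under both labels as controls or as exercise gives the same fit and no separate value. Over all probe sets, the calls for high salt at 15 weeks (472) were 138 higher and 127 lower with only the groups compared, and 450 and 586 with array weights; those for high salt at 6 weeks (935) were 196 and 170, and 729 and 1051; those for exercise (512) were 183 and 69, and 733 and 974. For high salt against the non-salt arrays of 3 weeks (10) they were 62 and 39, and 67 and 65. Without control array 1 of 6 weeks the calls over all probe sets were 518 higher and 704 lower for high salt and 443 and 405 for exercise. With array weights they were 211 and 270 from 6 to 15 weeks of salt. In the same setting they were 340 and 333 in the difference of the salt effects, and 431 and 580 in the added comparison. Dim probe sets limit Igfbp1 and the 5 other untested probe sets.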
